A study of Mus musculus with 5 samples.

Results

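The insulin-like growth factor (IGF) axis was examined in RNA from wild-type mouse uveal tissue and from mouse eye tumors. The set held 10 genes chosen by name: the ligands Igf1 and Igf2, the receptors Igf1r and Igf2r, and the IGF-binding proteins (IGFBPs) Igfbp2, Igfbp3, Igfbp4, Igfbp5, Igfbp6 and Igfbp7. All 10 were found, each at 1 locus, among the 24768 loci of the deposited table (23141 with a gene name). All 10 also passed the filter on low counts, which kept 15241 loci for testing.

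IGF1 and IGF2 are secreted peptides that act mainly through the tyrosine kinase receptor IGF1R, which signals through the insulin receptor substrates to the PI3K, AKT and mTOR cascade and to the RAS cascade. IGF2R has no kinase: it clears IGF2 from the cell surface and carries lysosomal enzymes tagged with mannose 6-phosphate. The IGFBPs hold IGFs outside the cell, where they can withhold the ligand from the receptor or keep a local store that proteases release, and several of them also act without IGF. IGFBP7 binds IGFs only weakly and is counted here because it carries the family name.

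The wild-type group (2 libraries) was uveal tissue of the eye from adult wild-type mice, and the uvea is the vascular and pigmented layer made of iris, ciliary body and choroid. The tumor group (3 libraries) was eye tumor tissue from adult mice whose Lats1 and Lats2 alleles were floxed and in which an adeno-associated virus of serotype 5 delivered Cre recombinase (genotype label AAV5-Cre;Lats1/2 fl/fl). LATS1 and LATS2 are the Hippo pathway kinases that restrain the coactivators YAP and TAZ. The labels do not name the promoter that drives Cre or the cells that took up the virus, and nothing says whether each library came from its own animal or from a pool. The p-values therefore measure the spread between these libraries, which may be technical in part. No virus-injected eye without floxed alleles was analysed here, so the virus, the deletion and the growth of a tumor cannot be told apart.

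The libraries held 12687703 to 14368272 estimated fragments. Lats1, the check of the labels, was at 7.55 and 8.86 FPKM (a fragment level divided by the length of the transcript and the depth of the library) in wild type against 3.43, 3.90 and 2.94 FPKM in tumor libraries 1, 2 and 3, and it fell (log2 fold change −1.21, SE 0.18, edgeR adjusted p = 0.0115). Lats2 was at 20.1 FPKM on average in wild type and 14.7 FPKM in tumors and did not pass (log2 fold change −0.62, SE 0.19, edgeR adjusted p = 0.0577). The series title calls the tumors uveal melanoma. Of 9 melanocyte and pigment markers, 8 fell and 0 rose, and their summed level was 6603 to 6827 FPKM in wild type and 10.6 to 79.5 FPKM in tumors. No marker of the list was at 0 in all tumors. The samples are called tumors here, with no cell type name. Macrophage markers were summed to 863 to 873 FPKM in wild type and 4214 to 13842 FPKM in tumors, and 7 of 9 rose. The wild-type libraries also held markers of eye tissue outside the uvea. Photoreceptor markers were summed to 1313 to 1420 FPKM in wild type and 2.2 to 5.91 FPKM in tumors. Lens markers were summed to 590 to 724 FPKM in wild type and 136 to 411 FPKM in tumors. Lower levels in tumors are thus relative to a mix of eye tissues. Across bulk tissue of this kind, fewer cells of a type and less RNA per cell cannot be told apart.

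Of the 10 genes, Igfbp3 rose and Igf2 fell in the tumors, and 8 did not pass the test. A gene passed when its edgeR adjusted p, over all tested loci, was under 0.05. Over all tested loci 34.1% passed, 18.7% rose and 15.4% fell, so 1 rise and 1 fall among 10 genes are no more frequent than over the whole table. In FPKM, 8 of the 10 genes had group ranges that did not overlap, against 69.5% of all tested loci. The median log2 fold change of the 10 genes was 0.59, against 0.05 over all tested loci. With DESeq2, a second count test that called 45.7% of its loci, Igfbp2 and Igf2r rose as well.

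**Figure D1:**
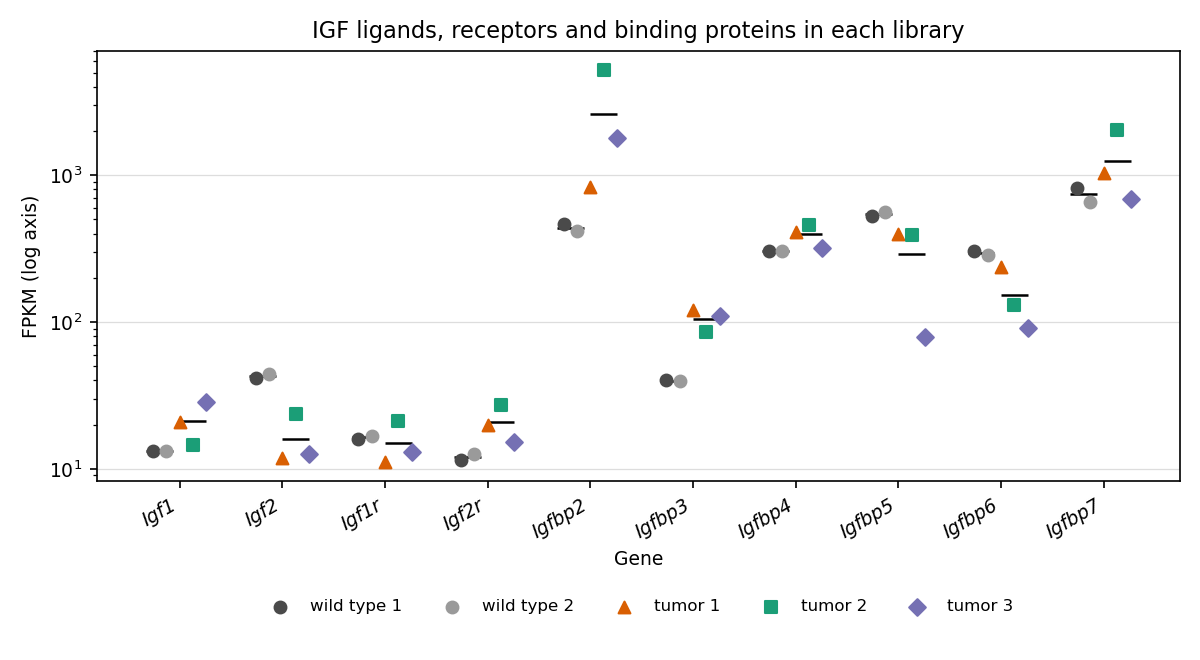
Level of the 10 IGF axis genes in each library, as FPKM on a log axis, with the 2 wild-type libraries as grey circles, the 3 tumor libraries as colored symbols and a black line at each group mean. Igfbp2 spans 837 to 5179 FPKM in tumors against 415 and 462 FPKM in wild type, while all 3 tumor libraries of Igf2 lie below both wild-type libraries.

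For each of the 10 genes the wild-type libraries lay closer together than the tumor libraries. In wild type the order of mean FPKM, a level per transcript length, ran from Igfbp7 (741 FPKM) through Igfbp5 (543), Igfbp2 (439), Igfbp4 (306) and Igfbp6 (296) to Igf2 (42.9), Igfbp3 (39.8), Igf1r (16.4), Igf1 (13.3) and Igf2r (12.1). No neighbours in that order overlapped between the 2 libraries. In tumors Igfbp2 came first at 2603 FPKM and Igf1r last at 15.1 FPKM. There Igfbp7 and Igfbp4 were neighbours that did not overlap, as were Igfbp3 and Igf1, and all other neighbours overlapped. By the ranges of neighbours, the order in tumors falls in 3 tiers: Igfbp2 and Igfbp7, then Igfbp4, Igfbp5, Igfbp6 and Igfbp3, then the ligands and receptors. Within the middle tier, Igfbp4 (319 to 458 FPKM) did not overlap Igfbp6 (91.5 to 238 FPKM) or Igfbp3 (85.1 to 120 FPKM). Igfbp4 was also above Igfbp5 within each tumor library. Among the tumors, library 2 was the highest for 6 genes and the lowest for 2, and library 3 was the highest for 1 and the lowest for 5.

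The start regions of the genes are shown for Igf2 and Igfbp3, which changed, for Igfbp2, the binding protein with the highest mean level in tumors, and for Igfbp5, the only other gene of the set whose window held the TEAD core. TEAD factors carry YAP and TAZ to DNA, and their core site reads GGAATG. The RefSeq table (GRCm38.p6) gave 14 start windows for the 10 genes, and the 250 bases upstream of each start were searched for the core on both strands. It was found in 4 of the 14 windows, 3 of the 4 of Igf2 and the 1 of Igfbp5, against 12.6% of all 32851 windows of that length. The windows printed are Igf2 at chr7:142657497-142657746 and chr7:142661306-142661521, Igfbp5 at chr1:72874885-72875115, Igfbp3 at chr11:7213924-7214173 (all minus strand) and Igfbp2 at chr1:72824230-72824479 (plus strand). The letters run 5′ to 3′ along the gene and stop before the first base that GENCODE vM21 places in an exon of the gene. Capitals mark the core on either strand. Both Igf2 windows lie inside the annotated span of the gene, upstream of internal starts.
Igf2 first window: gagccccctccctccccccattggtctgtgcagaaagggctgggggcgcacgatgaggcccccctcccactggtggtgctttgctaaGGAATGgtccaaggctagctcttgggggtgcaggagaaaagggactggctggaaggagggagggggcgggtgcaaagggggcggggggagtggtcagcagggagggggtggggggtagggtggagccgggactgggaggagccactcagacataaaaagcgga
Igf2 second window: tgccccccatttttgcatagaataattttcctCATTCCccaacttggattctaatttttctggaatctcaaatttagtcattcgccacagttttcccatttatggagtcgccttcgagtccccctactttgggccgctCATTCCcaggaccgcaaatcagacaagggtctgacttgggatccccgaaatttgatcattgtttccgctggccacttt
Igfbp5: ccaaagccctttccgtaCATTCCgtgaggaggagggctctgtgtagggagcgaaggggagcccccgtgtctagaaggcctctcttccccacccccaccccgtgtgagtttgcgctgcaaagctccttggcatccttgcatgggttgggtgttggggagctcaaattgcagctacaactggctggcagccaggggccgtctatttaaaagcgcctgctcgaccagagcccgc
Igfbp3: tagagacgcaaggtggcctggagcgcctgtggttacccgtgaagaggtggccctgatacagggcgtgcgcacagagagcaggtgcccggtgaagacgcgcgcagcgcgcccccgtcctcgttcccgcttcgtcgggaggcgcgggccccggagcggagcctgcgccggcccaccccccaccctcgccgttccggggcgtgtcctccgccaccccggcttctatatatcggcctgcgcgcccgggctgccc
Igfbp2: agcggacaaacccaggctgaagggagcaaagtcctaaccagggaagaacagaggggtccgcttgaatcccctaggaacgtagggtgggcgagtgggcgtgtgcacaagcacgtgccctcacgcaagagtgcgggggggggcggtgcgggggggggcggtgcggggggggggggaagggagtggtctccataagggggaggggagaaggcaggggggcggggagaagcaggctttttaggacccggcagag
In the first Igf2 window the core began 163 bases upstream of the RefSeq start, in the second 218 and 112 bases upstream, and in Igfbp5 233 bases upstream. A further Igf2 window, not printed because it lies in an exon, held it 180 bases upstream. The remaining Igf2 window, at chr7:142666817-142667066 directly upstream of the annotated span of the gene, held no core and is not printed either. Igfbp3 and Igfbp2 held no core in these windows. The TATA box letters TATAAA and the GC box letters GGGCGG were also searched on both strands. TATAAA was in 2 of the 14 windows, against 12.4% of all windows. In Igfbp4 it was on the strand of the gene, and in Igfbp6 only on the opposite strand. GGGCGG was in 6 windows of 5 genes, against 32.7%. The Igfbp3 window had 73.2% G and C, with 32 CpG dinucleotides, and the median over all windows was 52.4%. The windows of Igf1r (77.6%) and Igfbp7 (74%), genes that did not pass, were higher. These matches describe letters and no binding was measured.

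Of the ligands, Igf2 fell and Igf1 did not pass. Igf2, the fetal growth factor expressed mainly from the paternal allele, lies on chromosome 7 from 142650766 to 142666816 (mm10, minus strand; ENSMUSG00000048583.16, protein-coding, 9 transcripts of 2 to 6 exons). Its level was 41.3 and 44.5 FPKM in wild type and 11.8, 23.7 and 12.6 FPKM in tumor libraries 1, 2 and 3. Every tumor library was below both wild-type libraries, and tumor library 2 was the nearest to them. The mean went from 42.9 ± 2.29 FPKM (SD, n = 2) to 16.0 ± 6.61 FPKM (SD, n = 3), 2.67-fold lower, with a log2 fold change of −1.42 (SE 0.35, edgeR adjusted p = 0.0362). DESeq2 gave −1.45 (adjusted p = 0.00157). Without tumor library 2 the log2 fold change was −1.85. Over the same 20 other settings and left-out libraries as used for every gene here, Igf2 kept its direction and passed in 12. In edgeR the call ended without tumor library 1 (−1.24, adjusted p = 0.0728), without tumor library 3 (−1.28, adjusted p = 0.0674) and with library size alone (−1.37, adjusted p = 0.0555). Without wild-type library 1 or 2 it ended in edgeR (adjusted p = 0.166 and 0.186) and in DESeq2 (−1.51, adjusted p = 0.0715, and −1.40, adjusted p = 0.103).

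Several loci share the Igf2 region. Overlapping loci, here and for other genes, were picked with their values known. Igf2as, an antisense RNA that overlaps Igf2, had 19 and 13 fragments in wild type and 3, 19 and 1 in tumors, against 2026 and 2034 fragments of Igf2 in wild type and 594 to 1176 in tumors. Whether the counting used strand is not given in the sources used here, so reads of the overlapping stretch cannot be told apart. Ins2, the neighbouring insulin gene, chosen after its values were seen, had 339 and 146 fragments in wild type and 0, 10 and 0 in tumors, and it fell (log2 fold change −6.17, SE 1.47, edgeR adjusted p = 0.0333). Its wild-type libraries themselves differed more than 2-fold, and without tumor library 1 it did not pass (−5.59, edgeR adjusted p = 0.056). Retinal pigment epithelium markers were also lower in tumors: 7 of 8 fell, and their sum was 16556 to 16705 FPKM in wild type and 226 to 248 FPKM in tumors, with none at 0 in all tumors. These sums were 242, 248 and 226 FPKM in tumor libraries 1, 2 and 3. Keratin epithelium markers, of which 1 of 7 rose and 1 fell, were summed to 129, 745 and 236 FPKM there. In wild type the keratin sums were 1116 and 1131 FPKM. Igf2 had 594, 1176 and 596 fragments in tumor libraries 1, 2 and 3, so libraries 1 and 3 have no clear order for it. The part of either list in the Igf2 result was not tested.

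Igf1, the growth hormone-induced ligand, lies on chromosome 10 from 87858265 to 87937042 (plus strand; ENSMUSG00000020053.18, 8 transcripts of 4 to 5 exons). It was at 13.3 FPKM in each wild-type library and at 20.7, 14.5 and 28.5 FPKM in the tumors. All tumor libraries were above wild type, but tumor library 2 only narrowly. The means were 13.3 ± 0.0451 FPKM (SD, n = 2) and 21.3 ± 7 FPKM (SD, n = 3), and the change of 0.75 on the log2 scale (SE 0.30) did not pass (edgeR adjusted p = 0.112). Without tumor library 2 it passed at 0.94 (edgeR adjusted p = 0.0124). The FPKM that a scaled fragment of Igf1 was worth differed by 31.4% between tumor libraries 1 and 3, so its FPKM and its fragment counts are not in a fixed ratio across libraries. These libraries had 1255 and 1230 fragments of Igf1, closer to each other than their FPKM. The macrophage marker sum was 6659, 4214 and 13842 FPKM and the fibroblast marker sum 3692, 2617 and 4546 FPKM in tumor libraries 1, 2 and 3, the same order as Igf1. In wild type these sums were 863 to 873 and 1768 to 1965 FPKM. Of 9 fibroblast markers 4 rose and 0 fell. Lymphocyte markers (45.0, 38.1 and 92.5 FPKM) and proliferation markers (162, 120 and 213 FPKM) had that order too and were also above wild type, so 4 of 15 marker lists shared it. No marker of these 4 lists was at 0 in all libraries of a group. Their part in the Igf1 values was not tested, and 3 libraries have only 6 possible orders.

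The balance of the ligand transcripts differed between the groups without overlap. The ratio of Igf2 to Igf1 FPKM was 3.10 and 3.36 in wild type and 0.571, 1.63 and 0.443 in tumors. Igf2 was the more abundant ligand in both wild-type libraries and in tumor library 2, and Igf1 in tumor libraries 1 and 3. The summed ligand level was 54.6 and 57.8 FPKM in wild type against 32.6, 38.2 and 41.1 FPKM in tumors. Such ratios of 2 against 3 libraries cannot reach an exact two-sided permutation p below 0.2, so they are given as a description.

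Neither receptor passed in edgeR. Igf1r, the signalling receptor, lies on chromosome 7 from 67952827 to 68233668 (plus strand; ENSMUSG00000005533.10, 6 transcripts of 1 to 21 exons). It was at 15.9 and 16.8 FPKM in wild type against 11.2, 21.1 and 13.0 FPKM in tumors. The tumor libraries lay on both sides of the wild-type libraries, with library 2 above and libraries 1 and 3 below. The means were 16.4 ± 0.685 FPKM (SD, n = 2) and 15.1 ± 5.25 FPKM (SD, n = 3). The change was −0.07 on the log2 scale (SE 0.31, edgeR adjusted p = 0.881), and it turned to 0.11 without tumor library 1 and to 0.02 without tumor library 3.

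Igf2r, the scavenger receptor for IGF2, lies on chromosome 17 from 12682406 to 12769664 (minus strand; ENSMUSG00000023830.14, 3 transcripts of 2 to 48 exons). It was at 11.5 and 12.6 FPKM in wild type against 19.8, 27.2 and 15.2 FPKM in tumors. All 3 tumor libraries were above wild type. The means were 12.1 ± 0.780 FPKM (SD, n = 2) and 20.7 ± 6.05 FPKM (SD, n = 3), and the change of 0.81 on the log2 scale (SE 0.28) missed the threshold in edgeR (adjusted p = 0.0824) and passed in DESeq2 at 0.78 (adjusted p = 0.0386). Without tumor library 3 it passed in edgeR at 0.98 (adjusted p = 0.0369). The antisense RNA Airn, which overlaps Igf2r and silences it on the paternal allele in many mouse tissues, had 13 and 6 fragments in wild type and 29, 44 and 16 in tumors and did not pass (log2 fold change 1.59, SE 0.64, edgeR adjusted p = 0.114). Igf2r itself had 1284 and 1298 fragments in wild type and 1677 to 3109 in tumors.

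The ratio of Igf2r to Igf1r FPKM was 0.726 and 0.750 in wild type and 1.76, 1.29 and 1.17 in tumors, so Igf2r was the less abundant receptor transcript in each wild-type library and the more abundant in each tumor library. Against Insr, which encodes the insulin receptor that pairs with IGF1R in hybrid receptors, Igf1r stood at a ratio of 1.25 in both wild-type libraries and of 1.54, 3.64 and 2.81 in tumors. Insr fell, as described with the signalling genes.

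**Figure D2:**
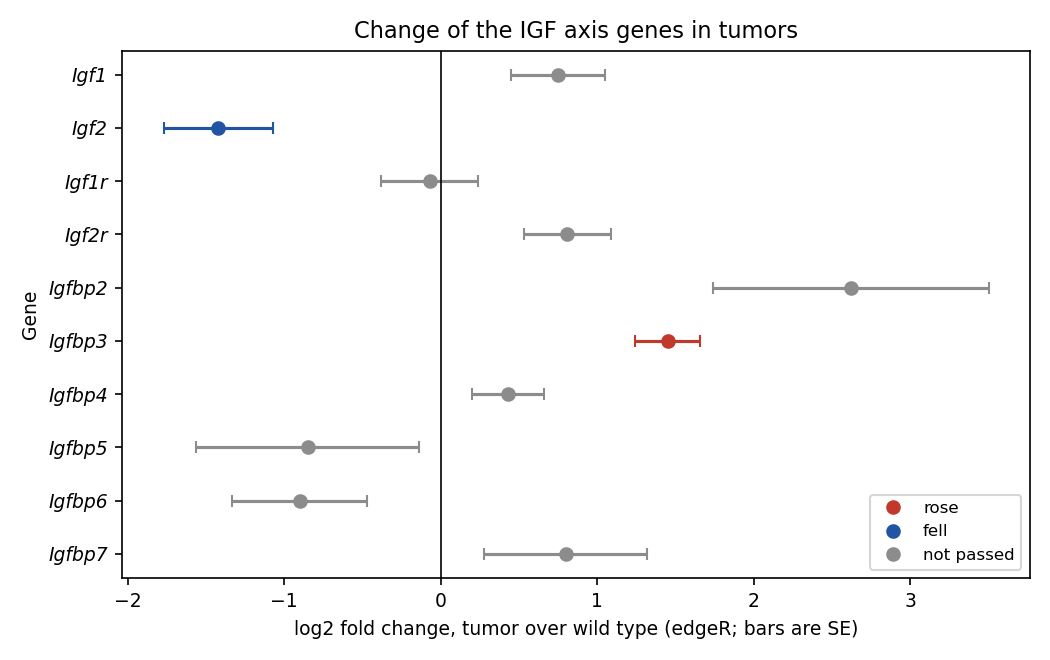
Change of each gene as the log2 fold change of tumor over wild type from edgeR, with bars of 1 SE; red marks a gene that rose, blue one that fell and grey one that did not pass. Igfbp3 at 1.45 and Igf2 at −1.42 are the genes that passed, and Igfbp2 at 2.62 has the widest bar.

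Among the 6 binding proteins Igfbp3 rose and the other 5 did not pass in edgeR. Igfbp3, the main carrier of IGFs in blood and also a growth inhibitor in its own right, lies on chromosome 11 from 7206086 to 7213923 (minus strand; ENSMUSG00000020427.11, protein-coding, 2 transcripts of 4 to 5 exons). Its level was 40.1 and 39.5 FPKM in wild type against 120, 85.1 and 110 FPKM in tumors. The lowest tumor library was more than 2-fold above wild type. The means were 39.8 ± 0.468 FPKM (SD, n = 2) and 105 ± 17.9 FPKM (SD, n = 3), 2.64-fold higher, with a log2 fold change of 1.45 (SE 0.21, edgeR adjusted p = 0.0118). Over 20 other settings and left-out libraries it kept its direction and passed in 18, between 1.32 and 1.55. The exceptions were edgeR without wild-type library 1 (adjusted p = 0.134) or 2 (adjusted p = 0.135), where the remaining library was assumed to vary like the tumors and no locus of the table passed.

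Igfbp2, a binding protein that carries an integrin-binding RGD motif and is made by many epithelial and neural tissues, had the highest mean level of the set in tumors and the widest range there. It lies on chromosome 1 from 72824503 to 72852474 (plus strand; ENSMUSG00000039323.18, 3 transcripts of 3 to 4 exons). It was at 462 and 415 FPKM in wild type against 837, 5179 and 1793 FPKM in tumors. All 3 tumor libraries were above wild type, and library 2 stood 6.19-fold above library 1. The means were 439 ± 33.3 FPKM (SD, n = 2) and 2603 ± 2282 FPKM (SD, n = 3), 5.93-fold apart. The change of 2.62 on the log2 scale (SE 0.88) did not pass in edgeR (adjusted p = 0.0743) and passed in DESeq2 at 2.58 (adjusted p = 0.00269). In edgeR it passed without tumor library 1 (3.04, adjusted p = 0.0426) and without tumor library 2 (1.58, adjusted p = 0.0455), which moved it in opposite directions. Epithelial keratin markers were summed to 129, 745 and 236 FPKM in tumor libraries 1, 2 and 3, the same order as Igfbp2, and to 1116 and 1131 FPKM in wild type, where Igfbp2 was lower. Of 7 such markers 1 rose and 1 fell, and none was at 0 in a whole group. Igf1r had the keratin order over the tumor libraries too, as did Igf2, whose libraries 1 and 3 were nearly level. Each of the 10 genes shared its order with some of the 15 marker lists, and 3 libraries have only 6 possible orders. The part of the keratin markers in the Igfbp2 values was not tested.

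Igfbp4, an inhibitor of IGF action that the protease PAPP-A cuts, did not pass. It lies on chromosome 11 from 99041244 to 99054392 (plus strand; ENSMUSG00000017493.12). It was at 306 and 305 FPKM in wild type against 413, 458 and 319 FPKM in tumors. The tumor libraries were all above wild type, library 3 only slightly, and the tumor mean was 397 ± 70.6 FPKM (SD, n = 3). The change was 0.43 on the log2 scale (SE 0.23, edgeR adjusted p = 0.21).

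Igfbp5, the most conserved of the family and a matrix-bound form, lies next to Igfbp2 on chromosome 1, from 72857932 to 72874884 on the opposite strand (ENSMUSG00000026185.8). It was at 529 and 558 FPKM in wild type against 397, 394 and 79.2 FPKM in tumors. All tumor libraries were below wild type, and library 3 lay 5.01-fold below library 1. The means were 543 ± 20.8 FPKM (SD, n = 2) and 290 ± 182 FPKM (SD, n = 3), and the change of −0.85 on the log2 scale (SE 0.71) did not pass (edgeR adjusted p = 0.391). It was −0.41 without tumor library 3 and −1.14 without tumor library 1 or 2. The neighbours Igfbp2 and Igfbp5 thus had log2 fold changes of opposite sign.

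Igfbp6, which prefers IGF2 over IGF1, lies on chromosome 15 from 102144362 to 102149511 (plus strand; ENSMUSG00000023046.6, 1 transcript of 4 exons). It was at 303 and 288 FPKM in wild type against 238, 130 and 91.5 FPKM in tumors, each tumor below both wild-type libraries. The means were 296 ± 10.3 FPKM (SD, n = 2) and 153 ± 76.1 FPKM (SD, n = 3). The change of −0.90 on the log2 scale (SE 0.43) did not pass (edgeR adjusted p = 0.164), and without tumor library 1 it passed at −1.36 (edgeR adjusted p = 0.0305). Endothelial markers were summed to 236, 159 and 117 FPKM in tumor libraries 1, 2 and 3, the same order as Igfbp6, and to 249 to 264 FPKM in wild type. Of 8 such markers 1 fell and 0 rose. Lens markers had the same order, at 411, 396 and 136 FPKM in tumors against 724 and 590 FPKM in wild type, and 2 of 8 fell. Igfbp5 shared this order as well, though its tumor libraries 1 and 2 were nearly level (397 and 394 FPKM). No marker of either list was at 0 in a whole group, and their part in the Igfbp5 and Igfbp6 values was not tested.

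Igfbp7, a secreted protein of vessels that was the most abundant transcript of the set in wild type, lies on chromosome 5 from 77349240 to 77408041 (minus strand; ENSMUSG00000036256.13). It was at 821 and 660 FPKM in wild type against 1037, 2029 and 692 FPKM in tumors. The groups overlapped, since tumor library 3 lay between the wild-type libraries. The means were 741 ± 114 FPKM (SD, n = 2) and 1253 ± 694 FPKM (SD, n = 3). The change of 0.80 on the log2 scale (SE 0.52) did not pass (edgeR adjusted p = 0.274) and was 0.24 without tumor library 2. Polr2b, an RNA polymerase subunit gene whose locus span overlaps that of Igfbp7, had 1077 and 1109 fragments in wild type and 770 to 834 in tumors.

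**Figure D3:**
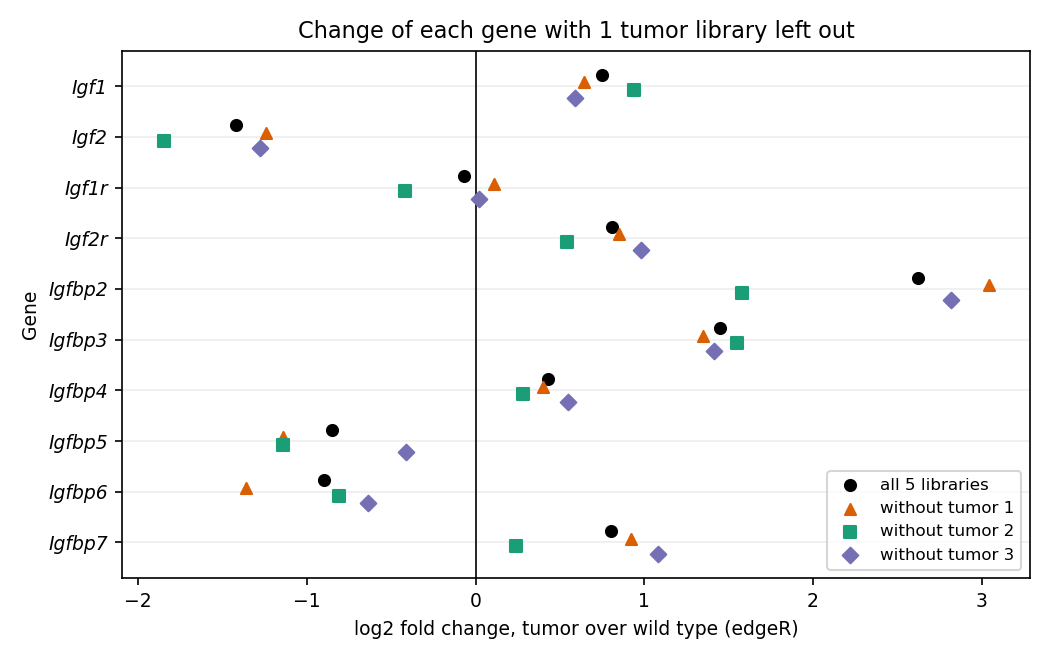
The log2 fold change of tumor over wild type from edgeR with all 5 libraries (black) and with each tumor library left out (colored symbols). Igfbp3 stays between 1.35 and 1.55, Igfbp2 runs from 1.58 to 3.04, and Igf1r lies on both sides of 0.

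Igfbp2 made up a larger share of the IGFBP transcripts in each tumor library than in either wild-type library. It was the largest share in tumor libraries 2 and 3, and Igfbp7 was the largest in both wild-type libraries and in tumor library 1. As a percent of the summed FPKM of Igfbp2 to Igfbp7, Igfbp2 held 18.8 and 18.3 in wild type and 27.5, 62.6 and 58.1 in tumors. The tumor mean of 49.4% ± 19.1 (SD, n = 3) compares with 18.5% ± 0.328 (SD, n = 2) in wild type. Igfbp5 held 21.5% and 24.6% in wild type and 13.0%, 4.76% and 2.57% in tumors. Igfbp6 held 12.3% and 12.7% in wild type and 7.83%, 1.57% and 2.97% in tumors. For both genes every tumor share was below the wild-type shares. Igfbp7 held 29.1% to 33.4% in wild type and 22.4% to 34.1% in tumors, and Igfbp4 held 12.5% to 13.5% and 5.53% to 13.6%, so these overlapped. Igfbp3, although it rose, held only 1.63% and 1.74% in wild type and 3.94%, 1.03% and 3.57% in tumors. Shares of 1 sum are tied to each other, so a high Igfbp2 lowers the other shares by arithmetic.

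The summed IGFBP level was 2461 and 2267 FPKM in wild type against 3042, 8275 and 3085 FPKM in tumors. Without Igfbp2 it was 1999 and 1851 FPKM in wild type against 2205, 3095 and 1292 FPKM in tumors, and the groups overlapped. Against the summed ligands, the IGFBP sum stood at a ratio of 45.1 and 39.2 in wild type against 93.4, 217 and 75.0 in tumors. Every tumor library had more IGFBP transcript per ligand transcript than either wild-type library. An exact two-sided permutation test cannot go below p = 0.2 in this comparison. The full separation needed Igfbp2. Without it, tumor library 3 had 1292 FPKM of IGFBPs to 41.1 FPKM of ligands, and wild-type library 2 had 1851 to 57.8 FPKM. The ratio was then slightly lower in that tumor library, so the groups overlapped. Tumor libraries 1 and 2 had 2205 to 32.6 and 3095 to 38.2 FPKM without Igfbp2, and their ratios stayed above both wild-type libraries. The summed ligands were also lower in every tumor library (32.6 to 41.1 FPKM) than in wild type (54.6 and 57.8 FPKM).

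**Figure D4:**
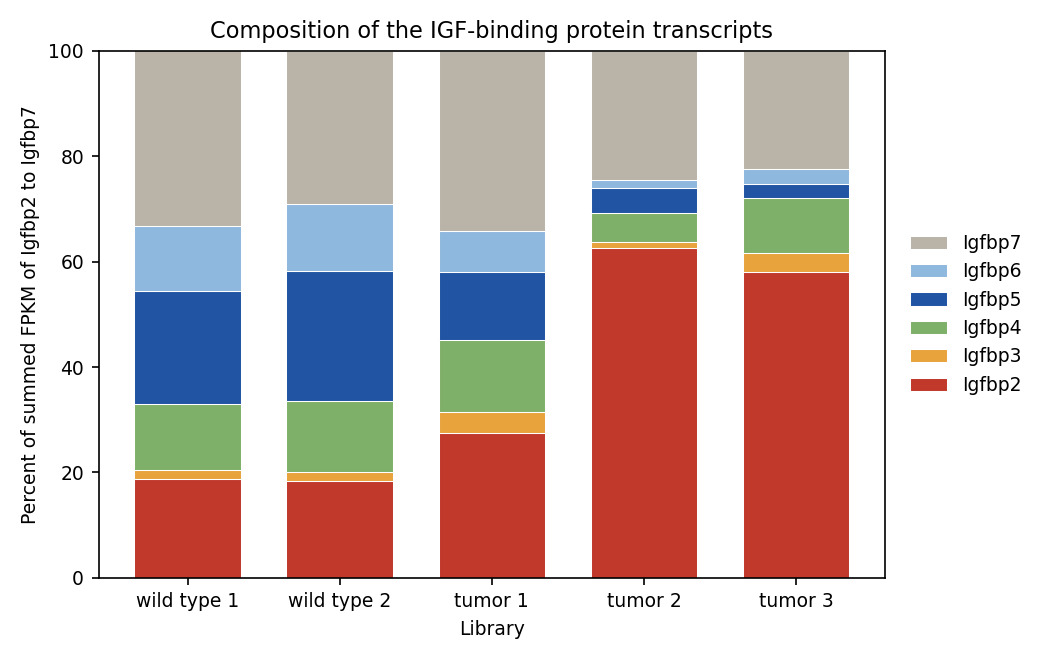
Share of each IGF-binding protein in the summed FPKM of Igfbp2 to Igfbp7, as stacked bars to 100% for each library. Igfbp2 (red) takes 18.3% to 18.8% in wild type and 27.5% to 62.6% in tumors, and Igfbp5 and Igfbp6 (blue) narrow.

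The other genes of the pathway were read from 6 lists made from general knowledge. Of 59 tested loci (Peg3 stood at 2) 9 rose, 13 fell and 37 did not pass, with a median log2 fold change of −0.15 against 0.05 over all tested loci. Over all tested loci 18.7% rose and 15.4% fell, so the share of these loci that changed was near that of the whole table. In edgeR without either wild-type library none of these loci passed, as no locus of the table did.

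Among the genes that control IGF availability, Pappa and Stc2 rose and Kazald1 fell. Pappa encodes PAPP-A, the protease that cuts Igfbp4 and frees IGF, and was at 0.151 and 0.281 FPKM in wild type against 0.849, 3.58 and 2.73 FPKM in tumors (log2 fold change 3.51, SE 0.77, edgeR adjusted p = 0.0279). Stc2 encodes stanniocalcin-2, an inhibitor of PAPP-A, and was at 0.983 and 1.06 FPKM in wild type against 7.42, 40.0 and 9.86 FPKM in tumors (log2 fold change 4.32, SE 0.99, edgeR adjusted p = 0.0303). The protease transcript and that of its inhibitor were thus both higher in every tumor library, and tumor library 2, highest in Igfbp2, was the highest in both. Without tumor library 3 Pappa did not pass (3.40, edgeR adjusted p = 0.0502), nor did it by limma-trend on log2(FPKM + 1) (1.38 on that scale, adjusted p = 0.0534).

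Kazald1, an IGFBP-related secreted protein of bone and other tissues, was at 39.3 and 33.6 FPKM in wild type against 9.12, 4.91 and 8.07 FPKM in tumors (log2 fold change −2.49, SE 0.30, edgeR adjusted p = 0.00816). Pappa2, a related protease that cuts Igfbp3 and Igfbp5, was at 2.31 and 2.69 FPKM in wild type against 8.90, 0.526 and 7.96 FPKM in tumors. It did not pass (log2 fold change 1.27, SE 1.11, edgeR adjusted p = 0.409), and passed at 1.78 without tumor library 2 (edgeR adjusted p = 0.00699), the library in which Pappa was highest. Stc1 and the IGFBP-cleaving protease gene Htra1 did not pass (0.15, SE 0.33, and −0.70, SE 0.61). Igfbp1, Igfbpl1 and Igfals, the latter the third part of the complex that carries IGF with Igfbp3 in blood, had too few fragments to be tested, at most 34 in any library.

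Of 25 tested genes of IGF and insulin signalling 3 rose and 7 fell, with a median log2 fold change of −0.30. The shares over all tested loci were 18.7% and 15.4%, with a median of 0.05. The 7 include Mtor, whose fall cannot be told apart from that of a nested gene, as described below. Upstream, Insr was at 12.7 and 13.5 FPKM in wild type against 7.29, 5.78 and 4.60 FPKM in tumors, and it fell by 1.32 on the log2 scale (SE 0.21, edgeR adjusted p = 0.0142). The related orphan receptor gene Insrr fell from 285 and 269 fragments to 2, 7 and 9 (log2 fold change −5.54, SE 0.60, edgeR adjusted p = 0.00714), with the size of the fold uncertain at such counts. The docking protein gene Irs1 went the other way, from 2.34 and 2.51 FPKM to 9.24, 12.7 and 7.32 FPKM, and rose by 2.05 on the log2 scale (SE 0.28, edgeR adjusted p = 0.00999). Its paralog Irs2 (picked with its values known) was at 36.5 and 37.0 FPKM in wild type against 8.35, 18.3 and 23.1 FPKM in tumors and did not pass (−0.88, SE 0.42, edgeR adjusted p = 0.16).

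The other rises were Grb10 (log2 fold change 1.26) and Grb14 (2.02), chosen after their values were seen. GRB10 and GRB14 are adaptors that dampen insulin and IGF receptor signalling. Grb10 was at 15.3 and 18.1 FPKM in wild type against 40.7, 29.0 and 46.7 FPKM in tumors, and Grb14 at 3.19 and 3.21 FPKM against 14.6, 7.54 and 15.2 FPKM. Both were higher in each tumor library than in either wild-type library, and tumor library 2 was the lowest of the tumors for both. Without tumor library 1 Grb10 did not pass (1.22, edgeR adjusted p = 0.0512).

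Of the 3 genes of PI3K regulatory subunits, 2 fell. Pik3r1 was at 24.8 and 28.2 FPKM in wild type against 12.5, 12.5 and 14.1 FPKM in tumors (log2 fold change −0.99, SE 0.15, edgeR adjusted p = 0.0129), and Pik3r3 at 17.9 and 19.9 FPKM in wild type against 5.81, 5.64 and 3.43 FPKM in tumors (−1.88, SE 0.27, edgeR adjusted p = 0.011). Pik3r2, the remaining regulatory subunit of the list, did not pass (0.11, SE 0.24), and its sign turned under some settings. The other falls, chosen after their values were seen, were the adaptor gene Gab1 (−0.90, edgeR adjusted p = 0.0484) and the transcription factor gene Foxo3 (−0.75, edgeR adjusted p = 0.031). With tumor library 1 left out Gab1 did not pass in edgeR (−0.75, adjusted p = 0.0845), and neither did it with tumor library 3 left out (−0.83, adjusted p = 0.0917), with library size alone (−0.86, adjusted p = 0.0818) or with no filter on low counts (−0.90, adjusted p = 0.0532), nor by limma-trend on log2(FPKM + 1) (−0.63, adjusted p = 0.0761). Foxo3 did not pass without tumor library 3 (−0.77, edgeR adjusted p = 0.0502). The kinase genes Akt1 and Akt2, like Pik3r2 picked with their values known, did not pass, at 0.48 and −0.48, while Akt2 passed in DESeq2 (−0.51, adjusted p = 0.0246) and in edgeR without tumor library 1 (−0.59, adjusted p = 0.0441).

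Mtor, the kinase at the end of the cascade, had the smallest p of the list. It was at 45.5 and 48.4 FPKM in wild type against 5.67, 8.15 and 6 FPKM in tumors (log2 fold change −2.60, SE 0.20, edgeR adjusted p = 0.00444). The Mtor locus shares its span on chromosome 4 with Angptl7, a secreted protein gene nested in it, and Angptl7 fell from 3499 and 3655 fragments in wild type to 139, 146 and 217 in tumors (log2 fold change −4.46, SE 0.29, edgeR adjusted p = 0.00342). Mtor had 3827 and 3717 fragments in wild type and 538, 760 and 628 in tumors. How the authors divided the reads of such nested genes is not given in the sources used here, so the fall of Mtor and that of Angptl7 cannot be told apart in these counts.

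**Figure D5:**
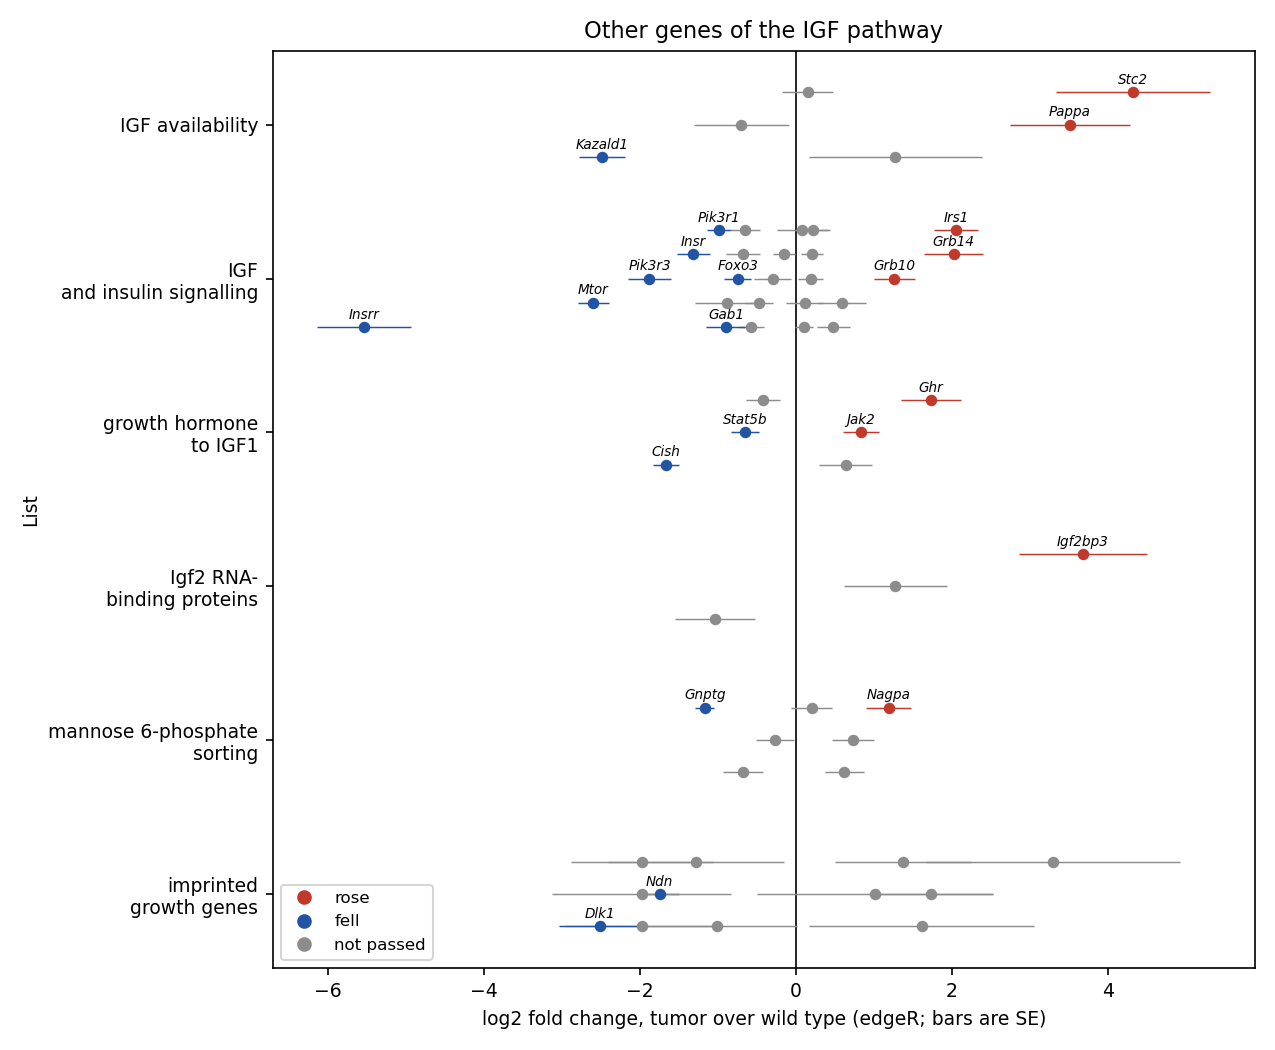
Log2 fold change of tumor over wild type from edgeR for the 59 tested loci of the 6 pathway lists, with bars of 1 SE, in lanes within each list that only separate the points, and names on the genes that rose (red) or fell (blue). The points lie on both sides of 0 in each list, from Insrr at −5.54 to Stc2 at 4.32.

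On the way from growth hormone to IGF1, the receptor gene Ghr and its kinase gene Jak2 rose, and the transcription factor gene Stat5b and the feedback inhibitor gene Cish fell. Ghr was at 13.4 and 13.3 FPKM in wild type against 28.3, 27.8 and 72.1 FPKM in tumors (log2 fold change 1.73, SE 0.39, edgeR adjusted p = 0.0296). Cish, a direct target of STAT5, was at 25.8 and 24.8 FPKM in wild type against 6.64, 7.61 and 8.81 FPKM in tumors (−1.67, SE 0.17, edgeR adjusted p = 0.00631). Jak2 (0.83, edgeR adjusted p = 0.0489) and Stat5b (−0.65, edgeR adjusted p = 0.0462) passed by little, and both calls ended in edgeR without tumor library 2 (adjusted p = 0.0601 and 0.0568) and with no filter on low counts (adjusted p = 0.0579 and 0.0548). Stat5b also did not pass without tumor library 1 (−0.54, edgeR adjusted p = 0.0692), nor Jak2 with RLE size factors (0.79, edgeR adjusted p = 0.055). By limma-trend on log2(FPKM + 1), neither Ghr (1.46, adjusted p = 0.0586) nor Jak2 (0.69, adjusted p = 0.0648) passed. Stat5a (−0.42) and Socs2 (0.64) did not pass. Tumor library 3 was the highest of the tumors in Ghr, as it was in the FPKM of Igf1. In fragments of Igf1, tumor libraries 1 and 3 were close (1255 and 1230).

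Of the RNA-binding proteins that attach to Igf2 mRNA, Igf2bp3, an oncofetal form, rose from 0.0897 and 0.155 FPKM to 2.73, 0.705 and 1.16 FPKM (log2 fold change 3.68, SE 0.82, edgeR adjusted p = 0.0284). It stayed low in absolute terms, with 5 and 8 fragments in wild type and 41 to 161 in tumors, and did not pass by limma-trend on log2(FPKM + 1) (1.09, adjusted p = 0.0636). Igf2bp1 (−1.04, SE 0.51) and Igf2bp2 (1.27, SE 0.66) did not pass. Each passed without tumor library 3, at −1.56 (edgeR adjusted p = 0.045) and 1.64 (edgeR adjusted p = 0.0352).

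Igf2r shares its cargo with the mannose 6-phosphate sorting route, in which 1 of 7 genes rose and 1 fell. Nagpa, which uncovers the mannose 6-phosphate tag, was at 10.7 and 8.59 FPKM in wild type against 17.2, 18.5 and 28.5 FPKM in tumors (log2 fold change 1.19, SE 0.29, edgeR adjusted p = 0.0347). Gnptg, a subunit of the enzyme that adds the tag, was at 85.6 and 84.2 FPKM in wild type against 34.4, 36.8 and 38.3 FPKM in tumors (−1.17, SE 0.12, edgeR adjusted p = 0.00666). Its locus overlaps Unkl, which also fell (−0.89, SE 0.15, edgeR adjusted p = 0.0168), and reads of the shared stretch cannot be told apart. The catalytic subunit gene Gnptab (0.62) and the smaller mannose 6-phosphate receptor gene M6pr (0.73) did not pass. M6pr was at 53.5 and 57.1 FPKM in wild type against 75.7, 72.6 and 118 FPKM in tumors, above wild type in every tumor library, as Igf2r was.

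Among imprinted growth genes, of which Igf2 is one, Dlk1 and Ndn fell, and the other 10 of 12 tested loci did not pass. Dlk1, a fetal signalling ligand, was at 3.01 and 2.71 FPKM in wild type against 0.264, 0.787 and 0.398 FPKM in tumors (log2 fold change −2.52, SE 0.52, edgeR adjusted p = 0.024). Ndn, which encodes the growth suppressor necdin, was at 79.4 and 75.0 FPKM in wild type against 27.9, 22.5 and 16.2 FPKM in tumors (−1.75, SE 0.25, edgeR adjusted p = 0.0115). H19, the maternally expressed RNA that shares a control region with Igf2 (picked with its values known), was at 22.8 and 25.0 FPKM in wild type against 127, 83.1 and 19.9 FPKM in tumors. Tumor libraries 1 and 2 were above wild type and library 3 was below, and the change of 1.73 on the log2 scale (SE 0.79) did not pass (edgeR adjusted p = 0.148). Without tumor library 3 H19 passed at 2.18 (edgeR adjusted p = 0.0113). Library 1 had the highest H19 and the lowest Igf2, while library 3 had the lowest H19 with an Igf2 level like that of library 1. The skeletal muscle marker sum was 8762 FPKM in tumor library 1, 509 and 522 FPKM in libraries 2 and 3 and 633 to 659 FPKM in wild type, and its part in the H19 value was not tested.

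The loci whose pattern over the 5 libraries lay closest to each gene were found by the root mean square difference of log2 counts scaled to library size, each locus centred on its own mean. For Igf2 they were Micall1 (0.0506) and Fam102a (0.0755), and for Igfbp3 Vrk2 (0.0613) and Serinc3 (0.0701). For Igf1 they were Ccdc53 (0.0517) and Dpy19l1 (0.0831), for Igf1r Actn4 (0.0259) and Cdc42bpa (0.0317), and for Igf2r Ier5 (0.0604) and Wwtr1 (0.0739), which encodes TAZ. Wwtr1 was at 13.5 and 13.8 FPKM in wild type against 23.4, 28.2 and 18.1 FPKM in tumors. Ier5, the closer of these 2 loci, was at 14.4 and 14 FPKM against 23.6, 30.5 and 17.9 FPKM. That both share the library order of Igf2r follows from how they were picked. For Igfbp4 they were Aaas (0.0489) and Mill2 (0.0584), and for Igfbp6 Tie1 (0.105), an endothelial receptor gene, and Cisd1 (0.11). For Igfbp5 they were Fmo1 (0.177) and Gdf10 (0.185), and for Igfbp7 Cdc42ep1 (0.196) and Lbp (0.197).

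Igfbp2 had the least close neighbours. They were Fgd3 (0.307) and Il1rn (0.311), and Il1rn was at 1.42 and 1.18 FPKM in wild type against 3.53, 18.5 and 9.45 FPKM in tumors. With 5 points per locus and 15241 loci, such likeness is a description of these libraries.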

How the data were processed

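RNA-seq libraries of 2 wild-type uveal tissues and 3 tumors were analysed. The submitters' processing notes name the tools TopHat2 2.0.9, Cufflinks 2.2.1 and Cuffdiff and the build mm10. Of annotation, filters and strand setting nothing is given in the sources used here. The deposited table gives, per locus and library, an estimated count of fragments that is not scaled, a scaled fragment signal and an FPKM, per the file headers. Its replicate numbers only name libraries, since nothing ties them to the labels' numbers. The deposited group FPKM was within 1% of the replicate mean at 100% of loci above 1 FPKM and was not used further. The 3 values marked FAIL were used unchanged.

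Estimated counts were rounded. The 1627 loci without a name (1.52% to 4.37% of fragments) were left out. EdgeR 4.0.16 (R 4.3.3; filterByExpr, minimum count 10; TMM, factors 0.909 to 1.08; quasi-likelihood F-test, two-sided, no covariate, all 5 libraries) compared tumor with wild type, with Benjamini-Hochberg adjustment over 15241 loci. "Rose" and "fell" are used of an adjusted p under 0.05. The SE was the size of the log2 fold change over the root of its F statistic. The test was run on simulated counts that had the same spread at every locus and in both groups. That run cannot show how the test behaves at the unequal spread of these groups. Replicate pairs differed by more than sampling noise (chi-square per degree of freedom 5.43 in wild type, 102 to 129 in tumors), and all were kept.

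Members and lists were chosen with earlier results of these data known. Of 194 listed genes 191 matched a locus by exact name, 2 by a synonym and 1 not at all. Named are the 10 members, of each pathway list up to 6 genes that passed by smallest p, any gene of a list under 10 genes, the 2 loci most like each member (tested, single-name, averaging 10 FPKM or more in 1 group, by log2 counts scaled to library size, prior count 2), and Lats1 and Lats2. Outside this rule, with their values known, the text names Irs2, Grb10, Grb14, Gab1, Foxo3, Akt1, Akt2, Pik3r2, H19 and the neighbouring or overlapping loci Ins2, Igf2as, Airn, Polr2b, Angptl7 and Unkl. Marker lists are given by counts and sums, and all others are in the closing section. Gene positions are from GENCODE vM21 (GRCm38, the assembly of mm10), start windows from RefSeq (GRCm38.p6). Protein sequences were not used here, and 2 genes of the signalling list are not reported here and were left out of its counts. Alternatives were DESeq2 1.42.0, other scalings and filters, limma-trend (limma 3.58.1) on log2(FPKM + 1) and log2(FPKM + 0.1), a replicate block and left-out libraries. DESeq2 with left-out libraries, and all alternatives for genes named outside the rule, were added after seeing the data.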

Additional observations from a re-analysis of the deposited data

How the results depend on the processing

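Over all loci, edgeR called 5201. With 1 library left out it called 0 to 6144 and DESeq2 2861 to 6775. EdgeR called 0 without wild-type library 1 or 2 (unadjusted p under 0.05 at 4085 and 3996 loci, 2 of the 10 members in each), where the lone wild-type library was assumed to vary like the tumors, and DESeq2 called 2878 and 2861 there. Of the called loci 54.8% rose, and 44.2% by limma-trend on log2(FPKM + 1) with no filter. Members that rose numbered 1, and 3 with DESeq2. With 1 library left out they numbered 0 to 3 in edgeR and 1 to 5 in DESeq2. Members that fell numbered 1, and 0 with library size alone. With 1 library left out they numbered 0 to 1 in edgeR, where the 1 without tumor library 1 was Igfbp6 and not Igf2, and 0 to 2 in DESeq2. Of the pathway loci 9 rose, and 5 by limma-trend on log2(FPKM + 1), filtered or not. With 1 library left out 0 to 12 rose in edgeR and 6 to 15 in DESeq2. Pathway loci that fell numbered 13, and with 1 library left out 0 to 17 in edgeR and 9 to 20 in DESeq2.

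The replicate block, with the table's numbers, called 3067 loci, 0 members that fell and 5 pathway loci that rose. Igf2 had −1.35 there (edgeR adjusted p = 0.0658). Calls also ended there for Stc2 (4.24, adjusted p = 0.054), Jak2 (0.64, 0.0726), Stat5b (−0.78, 0.0556), Nagpa (0.94, 0.0588), Dlk1 (−2.57, 0.0734) and Igf2bp3 (3.57, 0.0789). Deviations of same-numbered libraries correlated by 0.0131 and 0.0267 across loci. The deviations of 2 wild-type libraries mirror each other and the tumor libraries differ widely. These values therefore cannot show whether same-numbered libraries share more than a number. Grb10 (1.09, 0.0738), Grb14 (1.77, 0.0552), Gab1 (−0.87, 0.0811), Foxo3 (−0.77, 0.0771), Ins2 (−5.71, 0.087) and Unkl (−0.86, 0.0577) lost their call with the block too, and H19 gained one (2.16, 0.032). Over the 42 genes named by the rule and 840 alternative values, 714 kept direction and call, 81 lost the call, 36 gained it and 9 changed sign. Over 13 genes named outside it and 259 values, these numbers were 207, 38, 9 and 5. Pappa2 was −0.03 and Pik3r2 −0.06 with the replicate block. Without tumor library 3 Pik3r2 was −0.05 in edgeR and −0.06 in DESeq2, and without wild-type library 2 −0.02 and −0.01. With 1 library left out, Igf1r ran from −0.42 to 0.11 in edgeR and turned to 0.08 and 0.01 in DESeq2, and Stc1 ran from −0.11 to 0.29 in edgeR and turned to −0.01 and −0.14 in DESeq2. None of these had passed. The share of Igfbp2 in the IGFBP sum of tumors was 39.6% on fragments, 66.5% without Igfbp7 and 42.8% to 60.4% with 1 tumor library left out. The cause of these shifts was not tested. The lowest count of a member in any library was 594 fragments.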

Other observations

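The marker lists not given in full above had these summed levels, in FPKM. Photoreceptor markers were at 1313 to 1420 in wild type and 2.2 to 5.91 in tumors, and 9 of 9 fell. Lens markers were at 590 to 724 and 136 to 411, and 2 of 8 fell. Inner retina and Muller glia markers were at 1224 to 1260 and 107 to 245, with 2 of 7 tested falling, 1 rising and Pou4f2 at 0 in all tumors. Erythrocyte markers were at 509 to 772 and 23.4 to 65.5, and 3 of 3 fell. Pericyte and smooth muscle markers were at 746 to 767 and 620 to 896, and 1 of 8 fell. Schwann cell markers were at 175 to 178 and 203 to 290, and 5 of 5 did not pass. Lymphocyte markers were at 6.19 to 6.46 and 38.1 to 92.5, and 6 of 9 tested rose. Proliferation markers were at 86.3 to 88.0 and 120 to 213, and 5 of 8 rose. Skeletal muscle markers, whose sums are given beside H19, did not pass in 8 of 8 cases.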
